A study of Mus musculus with 9 samples.

Results

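Muscle RNA was examined for 10 mouse genes that carry the signals of the cytokines linked to cachexia, the loss of muscle that accompanies cancer. They encode the receptor chains Il6ra, Il6st, Osmr and Lifr with their transcription factor Stat3, the receptors Tnfrsf1a, Tnfrsf12a and Il1r1, and the NF-kB genes Nfkbia and Nfkb1. They were chosen by name, and each symbol matched 1 row of the 35275 genes listed in the deposited count table. All 10 passed the filter on low counts that left 13901 genes for testing, with between 84 and 5015 reads per gene and library.

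The libraries came from poly-A RNA of the gastrocnemius, a calf muscle, of 12-week-old female NSG mice labelled wild type. Each mouse had received extracellular vesicles (EVs), membrane-bound particles shed by cells, through the tail vein at about 10 µg per injection. There were 2 injections per week for 5 weeks, and muscle was collected 2 days after the last. In the MCF-10A EV group (4 libraries) the vesicles came from a non-tumorigenic human breast epithelial line, and in the MDA-MB-231 EV group (5 libraries) from a human breast cancer line. NSG mice lack mature lymphocytes and natural killer cells and carry no functional common gamma chain of the interleukin-2 receptor family, so cytokines that use that chain do not signal in either group. Neither group was free of EVs, so a difference between them cannot be assigned to one kind of vesicle. The comparison asks whether muscle exposed to cancer-line EVs differed in these genes from muscle exposed to non-cancer EVs. The labels do not say that each numbered replicate was a separate mouse, so p-values measure only the spread between these libraries.

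Interleukin-6 binds its own receptor chain, Il6ra, and the pair then recruits gp130, the product of Il6st, which passes the signal through JAK kinases to STAT3. Oncostatin M and leukemia inhibitory factor use gp130 too, joined to Osmr or Lifr. Tumour necrosis factor acts through Tnfrsf1a, the cytokine TWEAK through Tnfrsf12a (also called Fn14), and interleukin-1 through Il1r1. Tnfrsf1a, Tnfrsf12a and Il1r1 lead to kinases that mark IkB-alpha, the product of Nfkbia, for destruction. Its loss releases NF-kB dimers such as p50, made from Nfkb1, with RelA. Nfkbia is itself an NF-kB target, so its transcript is often read as a trace of the pathway's activity. In mice, TWEAK, tumour necrosis factor and interleukin-6 have each been tied to muscle wasting.

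The promoter windows below show which of the genes carry the letters of an NF-kB or a STAT element just upstream of their start. They are RefSeq sequences on the GRCm38.p6 build, read over the 250 bases before the start in the direction of transcription, 5′ to 3′. Windows of 9 of the 10 genes were matched by symbol, all but Nfkb1. Capitals mark a match to the kappaB consensus in Nfkbia and Il1r1, and a match to TTCNNNGAA, the spacing bound by STAT factors, in Tnfrsf1a and in Socs3, the feedback inhibitor that STAT3 induces. Nfkbia is shown as a whole window (chr12:55492648-55492897, minus strand). The other entries are sites with their flanks, at chr1:40266344-40266373 on the plus strand for a downstream start of Il1r1, chr6:125349473-125349502 on the plus strand for Tnfrsf1a and chr11:117969501-117969530 on the minus strand for Socs3.
Nfkbia: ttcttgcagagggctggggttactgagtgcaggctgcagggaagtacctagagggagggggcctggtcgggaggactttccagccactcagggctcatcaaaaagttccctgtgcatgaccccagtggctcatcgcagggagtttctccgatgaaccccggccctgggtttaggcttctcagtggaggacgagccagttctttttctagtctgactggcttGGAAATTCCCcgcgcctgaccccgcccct
Il1r1: cagggattttGGAATGCCCCcaaggagatg
Tnfrsf1a: gcttccTTCCGTGAAattgacaacaggctt
Socs3: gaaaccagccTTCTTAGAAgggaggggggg

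Both strands were searched, and no kappaB match overlapped a TTCNNNGAA match in these windows. Of 32851 windows of this length in the RefSeq table, 3.9% held the kappaB consensus and 7.02% held TTCNNNGAA. The Nfkbia match began 29 bases before the start and the Tnfrsf1a match 244 bases before it. The Tnfrsf1a site lies within the span that the deposited table gives for the gene. The other Il1r1 window, just before the start of the gene's span (chr1:40224830-40225079), held neither motif. A match describes the letters only, and the windows of the other members held neither motif, which says nothing of sites elsewhere.

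Per unit of transcript length, the receptors ranged widely in level. Levels are compared between genes as FPKM, fragments per kilobase of gene length for a library of fixed size, because longer transcripts collect more reads. Over the 9 libraries the mean was 29.8 ± 26.3 FPKM (SD) for Tnfrsf12a, 22.4 ± 2.30 FPKM for Il6st and 15.4 ± 4.02 FPKM for Nfkbia. The means of Tnfrsf1a and Stat3 lay close together at 13.5 ± 2.67 and 13.3 ± 2.37 FPKM. Nfkb1 followed at 7.44 ± 0.724 FPKM and Lifr at 4.75 ± 0.812 FPKM. The lowest were Il6ra at 1.72 ± 0.312 FPKM, Osmr at 1.60 ± 0.286 FPKM and Il1r1 at 1.43 ± 0.173 FPKM. The shared chain gp130 was thus measured at a far higher transcript level than Il6ra, the chain that binds interleukin-6, in every library.

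In that order, neighbouring genes had separate ranges over the 9 libraries at only 3 steps, from Stat3 to Nfkb1, from Nfkb1 to Lifr and from Lifr to Il6ra. The order rests on the deposited gene lengths, such as 4117 bases for Nfkb1 and 9655 for Lifr. The GENCODE M21 annotation gives these genes 12061 and 10776 exon bases. The step from Nfkb1 to Lifr thus depends on which length is used. The top place of Tnfrsf12a rested on a few libraries, since it exceeded Il6st in 4 of 9. Nfkbia, placed above Tnfrsf1a by its mean, exceeded it in 4 of 9 libraries. Tnfrsf1a exceeded Stat3 in 5 of 9, and Il6ra exceeded Osmr in 5 of 9, so the order within those pairs was not fixed. Osmr exceeded Il1r1 in 7 of 9, and Il6st exceeded Nfkbia in 8 of 9.

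**Figure D1:**
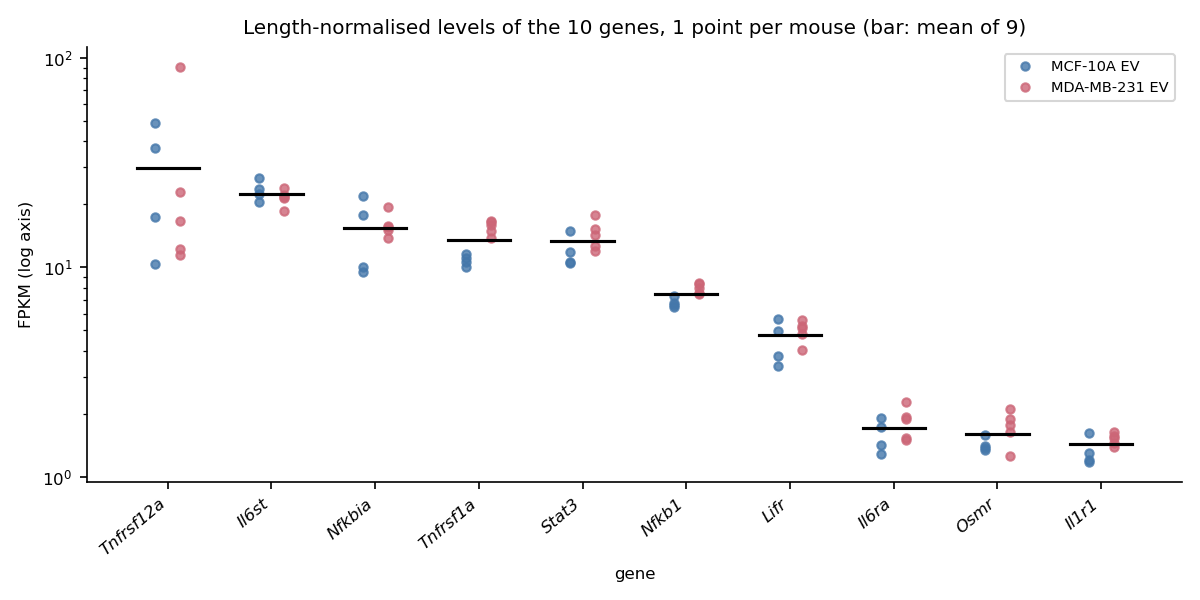
Deposited FPKM of the 10 genes on a log axis, with 1 point per library coloured by EV group and genes ordered by their mean over 9 libraries. Tnfrsf12a spans 10.4 to 90.7 FPKM, while Il6ra, Osmr and Il1r1 all lie below 2.3 FPKM.

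Between the groups, none of the 10 genes passed edgeR's quasi-likelihood test at a Benjamini-Hochberg adjusted p under 0.05, against a background of 0% of the 13901 genes tested. At an unadjusted p under 0.05 there was 1 of the 10, Tnfrsf1a, where 12.8% of all tested genes reached that level. Tnfrsf1a was also the only member whose libraries did not overlap between the groups, where 5.40% of tested genes had separate groups, 2.22% with MDA-MB-231 EV higher and 3.17% with it lower. The log2 fold changes, MDA-MB-231 EV relative to MCF-10A EV, were above 0 for 7 members and below 0 for 3, with a median of 0.064 beside 0.020 for all tested genes. The share of members at an unadjusted p under 0.05 was thus near the background. DESeq2, run as an alternative, called 228 genes, 3.06% of the 7447 to which it gave an adjusted p, and Tnfrsf1a was the single member among them, while Il6ra, Osmr and Il1r1 received no adjusted p.

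Total counts per library lay between 13943465 and 25195826. Every MCF-10A EV library had a lower TMM scaling factor (0.910 to 0.985) than every MDA-MB-231 EV library (1.02 to 1.06), so values without that scaling shift upward in MDA-MB-231 EV, with a median over all genes of 0.15. Muscle fibre markers were abundant in every library, with a summed level of 120605 to 210287 CPM, read counts relative to a scaled library size. Transcripts of pancreatic islets, seen as Ins2 above 10 CPM, were present in 5 libraries, 2 of MCF-10A EV (replicates 2 and 3) with 3 of MDA-MB-231 EV (replicates 1, 3 and 4). In bulk RNA, fewer cells of a type and less RNA per cell cannot be told apart.

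**Figure D2:**
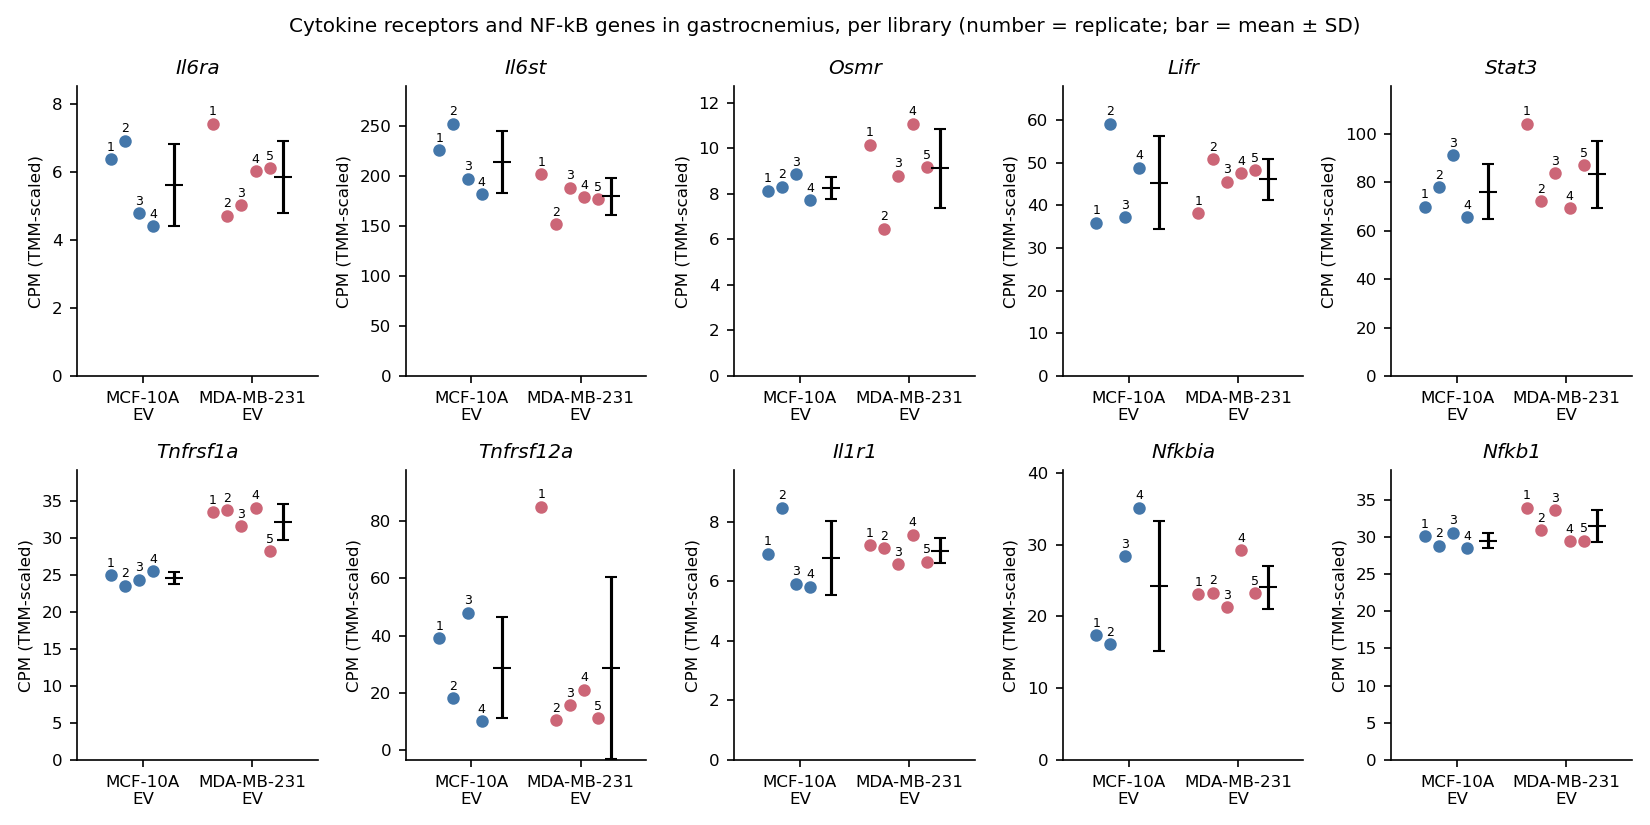
CPM of each of the 10 genes in every library, numbered by replicate, with the group mean and SD as bars (MCF-10A EV, n = 4; MDA-MB-231 EV, n = 5). Tnfrsf1a is the gene whose groups are separate, at 23.5 to 25.5 against 28.2 to 34.1 CPM.

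Tnfrsf1a (ENSMUSG00000030341, mm10 chr6:125349362-125362484, plus strand) encodes TNF receptor 1, the death-domain receptor through which tumour necrosis factor activates NF-kB in most cells. The MCF-10A EV libraries read 25.01, 23.5, 24.4 and 25.5 CPM in replicate order. The MDA-MB-231 EV libraries read 33.5, 33.7, 31.6, 34.1 and 28.2 CPM. Each library of the cancer-line group lay above each library of the other group, and MDA-MB-231 EV replicate 5 came closest to them. On average this was 24.6 ± 0.839 CPM (SD, n = 4) against 32.2 ± 2.43 CPM (SD, n = 5). The log2 fold change was 0.39 ± 0.090 (SE), a ratio of 1.31 with a 95% interval of 1.14 to 1.5.

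By edgeR the unadjusted p for Tnfrsf1a was 0.000965, the 49th smallest of all tested genes, and the adjusted p was 0.247, so the difference did not pass. The exact permutation test of mean log2 CPM gave a two-sided p of 0.0159, where the smallest that 4 against 5 libraries allow is 0.00794. With DESeq2 the adjusted p was 0.0131, past the threshold, at a log2 fold change of 0.38. Without each library in turn, the log2 fold change stayed between 0.37 and 0.44, with adjusted p from 0.188 to 0.466 by edgeR. It was 0.29 (unadjusted p = 0.0821) within the 4 libraries without islet transcripts and 0.46 (unadjusted p = 0.0120) within the 5 that had them. It was 0.52 on unscaled library sizes.

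The cell-type markers that moved with the same groups are given beside this difference. The summed level of 8 muscle fibre markers was 163189 to 210287 CPM in MCF-10A EV and 120605 to 147812 CPM in MDA-MB-231 EV, and all 8 had log2 fold changes below 0. Endothelial markers summed to 291 to 360 CPM and 362 to 498 CPM, with 7 of 8 above 0. Tendon markers, which include tenomodulin, summed to 519 to 1273 CPM and 1449 to 1878 CPM, with 7 of 8 above 0. For each of these 3 sums the groups were separate, as they were for Tnfrsf1a, although the endothelial sums nearly met. Taken singly, 1 of 8 muscle fibre, 1 of 8 endothelial, 4 of 8 tendon and 1 of 8 fibroblast markers had separate groups, beside 5.40% of tested genes. At an unadjusted edgeR p under 0.05 these lists had 2, 5, 6 and 4 of 8, beside 12.8% of tested genes. Satellite cell markers had 1 of 8 at that level, and macrophage and adipocyte markers 0. Fibroblast markers summed to 2021 to 4363 CPM and 2806 to 5169 CPM, with all 8 above 0, and adipocyte markers to 337 to 730 CPM and 494 to 1105 CPM, again with all 8 above 0. Macrophage markers covered 99.9 to 267 CPM and 176 to 206 CPM, with 6 of 9 above 0. Satellite cell markers covered 221 to 276 CPM and 209 to 269 CPM, with 6 of 8 above 0. No marker of these 7 lists was at 0 throughout. Their part in the Tnfrsf1a result was not tested.

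Neutrophil markers summed to 1.1 to 10.8 CPM in MCF-10A EV and 0.838 to 23.9 CPM in MDA-MB-231 EV, with 1 of 8 abundant enough to test. Lymphocyte markers stayed between 0.251 and 1.1 CPM in all libraries, with the natural killer gene Ncr1 at 0 in every one. Islet and acinar markers summed to 1.89 to 109 CPM and 1.72 to 146 CPM, and high and low libraries occurred in both groups.

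Tnfrsf12a (ENSMUSG00000023905, mm10 chr17:23675447-23677449, minus strand) encodes Fn14, the TWEAK receptor, whose transcript is induced in denervated mouse muscle. It read 39.1, 18.1, 48.0 and 10.2 CPM in MCF-10A EV and 85.1, 10.4, 15.7, 21.1 and 11.2 CPM in MDA-MB-231 EV. The highest library, MDA-MB-231 EV replicate 1, was 8.32 times the lowest, MCF-10A EV replicate 4. The groups overlapped from 10.4 to 48.0 CPM, and only MDA-MB-231 EV replicate 1 lay above that. Average levels were 28.9 ± 17.6 CPM (SD, n = 4) against 28.7 ± 31.8 CPM (SD, n = 5). The log2 fold change was -0.0096 ± 0.73 (SE), with a 95% interval of -1.68 to 1.66 and an edgeR adjusted p of 0.997. A change of about 3-fold in either direction thus lies inside the interval, and the sign was positive with upper-quartile or unscaled library sizes. The log2 fold change became -0.99 on leaving out MDA-MB-231 EV replicate 1, and 0.36 on leaving out MCF-10A EV replicate 3. It was -1.20 within the libraries without islet transcripts and 0.29 within those that had them.

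The receptors of the interleukin-6 family showed no member that passed. Il6st (ENSMUSG00000021756, mm10 chr13:112464070-112510086, plus strand), which encodes the shared transducer gp130, read 226, 252, 197 and 182 CPM in MCF-10A EV. It read 202, 152, 188, 179 and 177 CPM in MDA-MB-231 EV. The highest values were MCF-10A EV replicates 1 and 2 and the lowest was MDA-MB-231 EV replicate 2, while MCF-10A EV replicates 3 and 4 lay within the range of the other group. Il6st averaged 214 ± 31.0 CPM (SD, n = 4) against 180 ± 18.4 CPM (SD, n = 5), and the log2 fold change was -0.25 ± 0.12 (SE), with a 95% interval of -0.52 to 0.0089. The edgeR adjusted p was 0.401, and DESeq2 gave 0.244. The sign was negative under every setting tried, from -0.32 to -0.080, the latter with both MCF-10A EV replicates 1 and 2 left out, and it was -0.11 on unscaled library sizes.

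Il6ra (ENSMUSG00000027947, mm10 chr3:89869324-89913162, minus strand) encodes the chain that binds interleukin-6 and is also shed in soluble form. Its values were 6.38, 6.92, 4.79 and 4.40 CPM in MCF-10A EV and 7.41, 4.72, 5.02, 6.02 and 6.10 CPM in MDA-MB-231 EV. The groups overlapped over most of their range, and the log2 fold change was 0.069 ± 0.19 (SE) with an edgeR adjusted p of 0.901. Of its 8642 exon bases, 242 are shared with Gm42809 on the opposite strand in GENCODE M21. Reads there cannot be told apart, because whether counting used strand is not given in the sources used here.

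Osmr (ENSMUSG00000022146, mm10 chr15:6813577-6874969, minus strand) encodes the oncostatin M receptor. It read 8.13, 8.31, 8.86 and 7.71 CPM in MCF-10A EV and 10.2, 6.46, 8.79, 11.1 and 9.17 CPM in MDA-MB-231 EV. The MCF-10A EV libraries lay within the wider spread of the other group, which held both the lowest and the highest value. Its log2 fold change was 0.15 ± 0.15 (SE), with a 95% interval of -0.19 to 0.48 and an edgeR adjusted p of 0.714. It was -0.023 within the libraries without islet transcripts, 0.25 on leaving out MDA-MB-231 EV replicate 2, the lowest, and 0.070 on leaving out replicate 4, the highest.

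Lifr (ENSMUSG00000054263, mm10 chr15:7129559-7197489, plus strand) encodes the receptor for leukemia inhibitory factor. It read 35.9, 59.1, 37.2 and 48.9 CPM in MCF-10A EV and 38.1, 50.9, 45.6, 47.6 and 48.3 CPM in MDA-MB-231 EV. All 5 MDA-MB-231 EV libraries fell between the lowest and the highest of MCF-10A EV. The difference was 0.028 ± 0.15 in log2 fold change (SE), with a 95% interval of -0.30 to 0.35 and an edgeR adjusted p of 0.956. It became -0.069 without the lowest MCF-10A EV library, replicate 1, and 0.18 without the highest, replicate 2.

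Stat3 (ENSMUSG00000004040, mm10 chr11:100885098-100939540, minus strand) encodes the transcription factor that these receptors activate, chiefly by phosphorylation, which RNA counts do not measure. It read 70.0, 77.9, 91.3 and 65.6 CPM in MCF-10A EV and 104, 72.2, 83.9, 69.4 and 87.2 CPM in MDA-MB-231 EV. MDA-MB-231 EV replicate 1 was highest and MCF-10A EV replicate 4 lowest, with the rest intermixed. Stat3 averaged 76.2 ± 11.3 CPM (SD, n = 4) against 83.4 ± 13.9 CPM (SD, n = 5), and the log2 fold change was 0.13 ± 0.14 (SE), with an edgeR adjusted p of 0.717. It became 0.038 without the highest library and 0.23 without MCF-10A EV replicate 3. The gene shares 72 of its 9527 exon bases with Stat5a on the opposite strand.

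Il1r1 (ENSMUSG00000026072, mm10 chr1:40225080-40316198, plus strand) encodes the signalling receptor for interleukin-1. It read 6.93, 8.47, 5.92 and 5.82 CPM in MCF-10A EV and 7.21, 7.12, 6.58, 7.57 and 6.66 CPM in MDA-MB-231 EV. The MDA-MB-231 EV libraries were bunched inside the range of the MCF-10A EV libraries. For Il1r1 the log2 fold change was 0.060 ± 0.14 (SE), with a 95% interval of -0.25 to 0.37 and an edgeR adjusted p of 0.888.

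Neither of the NF-kB members passed. Nfkbia (ENSMUSG00000021025, mm10 chr12:55489411-55492647, minus strand), the IkB-alpha gene whose promoter carries the kappaB match shown above, read 17.4, 16.2, 28.4 and 35.1 CPM in MCF-10A EV. It read 23.1, 23.3, 21.3, 29.2 and 23.3 CPM in MDA-MB-231 EV. Within MCF-10A EV, replicates 3 and 4 were well above replicates 1 and 2, and the MDA-MB-231 EV libraries lay between those pairs, except replicate 4, which lay within the upper one. Group averages were 24.3 ± 9.10 CPM (SD, n = 4) against 24.0 ± 3.02 CPM (SD, n = 5). The log2 fold change was -0.019 ± 0.21 (SE), with a 95% interval of -0.48 to 0.44 and an edgeR adjusted p of 0.979, and its sign was positive with upper-quartile or unscaled library sizes and per FPKM. With both MCF-10A EV replicates 1 and 2 left out, the low pair, it was -0.40 with an unadjusted edgeR p of 0.0104, and without the highest library, MCF-10A EV replicate 4, it was 0.21.

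Nfkb1 (ENSMUSG00000028163, mm10 chr3:135584655-135691547, minus strand) encodes the precursor of the p50 subunit. It read 30.1, 28.8, 30.5 and 28.5 CPM in MCF-10A EV and 33.9, 30.9, 33.6, 29.4 and 29.5 CPM in MDA-MB-231 EV. These were the least variable of the 10 genes over the 9 libraries, with a coefficient of variation of 6.41%, and MDA-MB-231 EV replicates 4 and 5 lay within the MCF-10A EV range. Between groups the log2 fold change was 0.093 ± 0.087 (SE), with a 95% interval of -0.096 to 0.28 and an edgeR adjusted p of 0.674. As deposited FPKM, without scaling between libraries, Nfkb1 spanned 6.46 to 7.31 in MCF-10A EV and 7.47 to 8.46 in MDA-MB-231 EV, so its groups were separate on that scale, as were those of 5.87% of all tested genes with MDA-MB-231 EV higher. On unscaled library sizes the log2 fold change was 0.23, beside the shift of 0.15 for the median gene.

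**Figure D3:**
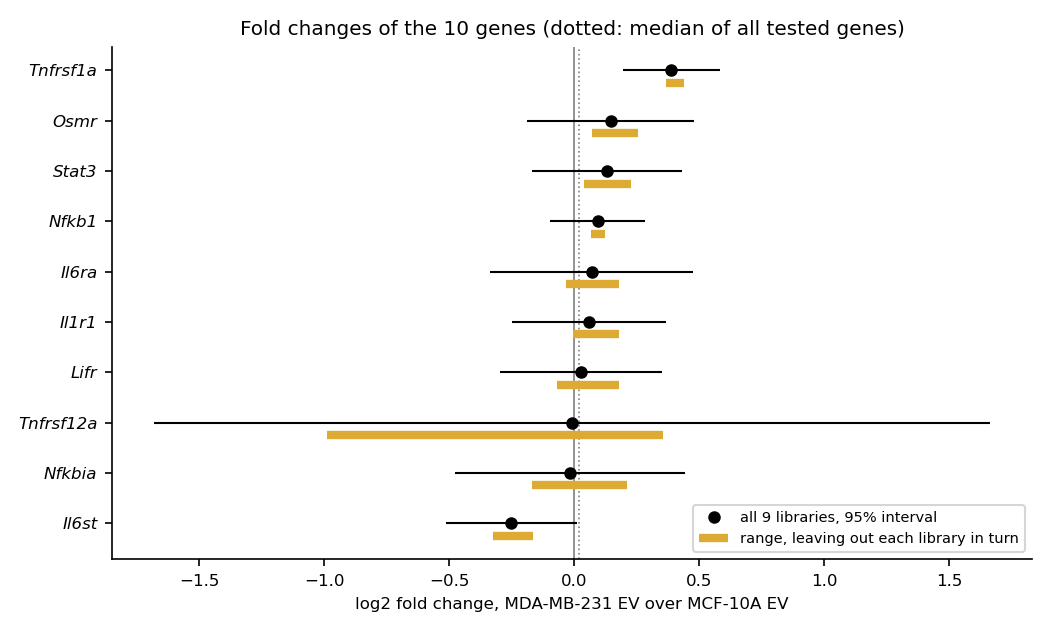
Log2 fold change (MDA-MB-231 EV relative to MCF-10A EV) of the 10 genes by edgeR with 95% intervals, the range over fits that leave out 1 library, and the median of all tested genes as a dotted line. Tnfrsf1a alone has an interval that excludes 0 before adjustment, and the interval of Tnfrsf12a spans -1.68 to 1.66.

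The genes also differed in how they varied within a group, which the comparison of means does not show. For each gene, log2 CPM was taken as the deviation from its own group mean, and Pearson's r was computed over the 9 libraries with the 7417 tested genes of at least 10 CPM on average. The genes named have the highest r of all, so r is a description and carries no p. Libraries also share depth and composition, which enter every r.

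Nfkbia was most like Ccnl1 (r = 0.986), which encodes cyclin L1, then S1pr1 (r = 0.969), a sphingosine-1-phosphate receptor, and Cebpd (r = 0.967), a transcription factor that STAT3 and inflammatory cytokines induce. With the 2 libraries farthest from the median left out, these were 0.967, 0.940 and 0.921. Cebpd read 11.5, 7.46, 30.2 and 48.6 CPM in MCF-10A EV and 12.2, 10.6, 12.2, 30.1 and 14.0 CPM in MDA-MB-231 EV. Its 3 highest libraries, replicate 4 of each group with MCF-10A EV replicate 3, were also the 3 highest for Nfkbia. For Cebpd the log2 fold change was -0.64 ± 0.55 (SE) with an edgeR adjusted p of 0.654, and -0.075 without MCF-10A EV replicate 4.

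Tnfrsf12a, whose likeness was looked up only after its spread had been seen, was most like Cnksr1 (r = 0.989), a scaffold protein of Ras signalling, Lyve1 (r = 0.971), a hyaluronan receptor of lymphatic vessels, and Socs3 (r = 0.969). Without the 2 farthest libraries these were 0.965, 0.955 and 0.952. Socs3, which encodes the inhibitor that binds gp130 and shuts off STAT3 signalling, read 11.8, 6.14, 20.1 and 4.25 CPM in MCF-10A EV and 26.2, 6.79, 7.38, 11.3 and 5.78 CPM in MDA-MB-231 EV. As for Tnfrsf12a, MDA-MB-231 EV replicate 1 was highest, MCF-10A EV replicate 3 next and MCF-10A EV replicate 4 lowest. For Socs3 the log2 fold change was 0.11 ± 0.57 (SE) with an edgeR adjusted p of 0.955, and it became -0.45 or 0.64 when the highest library of MDA-MB-231 EV or of MCF-10A EV was left out. MDA-MB-231 EV replicate 1 and MCF-10A EV replicate 3 also had the 2 highest levels of summed islet and acinar markers, 146 and 109 CPM. They had the 2 largest total counts as well, 24158088 and 25195826. MDA-MB-231 EV replicate 3 had 104 CPM of these markers with a Tnfrsf12a level of 15.7 CPM. MCF-10A EV replicate 1 had 2.75 CPM of them with a Tnfrsf12a level of 39.1 CPM. The part of islet and acinar transcripts, or of depth, in the Tnfrsf12a pattern was not tested.

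Stat3 was most like Eng (r = 0.978), which encodes the endothelial co-receptor endoglin, Samd4 (r = 0.975), an RNA-binding protein, and Clic5 (r = 0.959), an intracellular chloride channel protein. They remained at 0.958, 0.979 and 0.918 without the 2 farthest libraries. Osmr was most like Rps24-ps3 (r = 0.947), a ribosomal protein pseudogene whose reads may come from its parent gene, Frmd6 (r = 0.928) and Slit3 (r = 0.921), a secreted guidance protein. For Osmr the values dropped to 0.654, 0.832 and 0.746 without the 2 farthest libraries, so they rested in part on those. Tnfrsf1a, again looked up after its values were seen, was most like Gltscr2 (r = 0.936), Med15 (r = 0.909), a Mediator subunit, and Stard10 (r = 0.899), which became 0.620, 0.804 and 0.571.

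Among the 10 genes themselves, the receptor chains Il6ra and Il6st varied together (r = 0.874), and Il6ra with Il1r1 (r = 0.713). Stat3 and Tnfrsf12a had an r of 0.677. The most negative pairs were Lifr with Tnfrsf12a (r = -0.765) and Il6st with Nfkbia (r = -0.722). In the libraries where Tnfrsf12a was high, MCF-10A EV replicates 1 and 3 with replicate 1 of MDA-MB-231 EV, Lifr had its 3 lowest values.

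**Figure D4:**
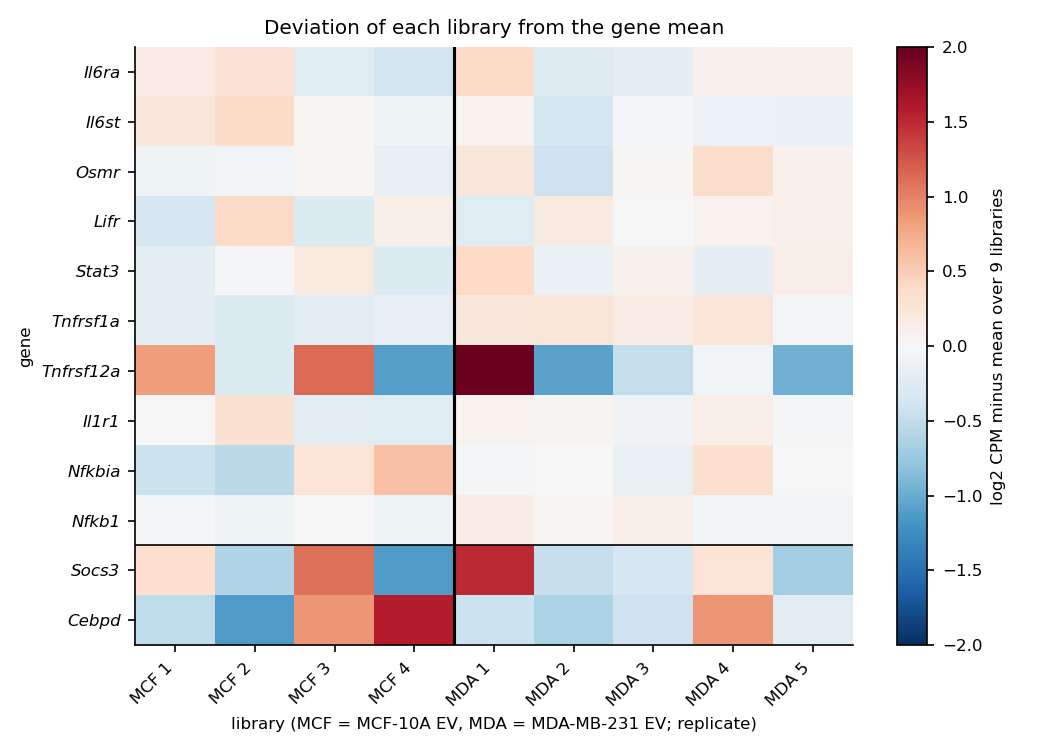
Heat map of log2 CPM minus the mean over the 9 libraries for the 10 genes with Socs3 and Cebpd, by library (columns) and gene (rows), on a scale from -2 to 2. Tnfrsf12a and Socs3 are high in MDA-MB-231 EV replicate 1 and MCF-10A EV replicate 3, and Nfkbia and Cebpd are high in replicate 4 of both groups and in MCF-10A EV replicate 3.

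Several of the cytokines that bind these receptors had only a few reads in muscle, while Tnfsf12, the TWEAK gene, and Lif passed the filter and are given with their lists. Il6 had 0, 0, 1 and 0 reads in MCF-10A EV and 2, 4, 0, 1 and 5 in MDA-MB-231 EV. Tnf had 1, 7, 4 and 1 reads and 6, 6, 6, 1 and 1 reads, and Il1b had 1, 0, 1 and 5 reads and 4, 4, 3, 2 and 2 reads. None of these, nor Il11, Osm, Cntf, Lta or Il1a, passed the count filter, so differences in them were not tested in the main fit. Muscle transcripts do not report cytokines made elsewhere and carried in blood.

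The 7 lists of other pathway genes, counted over those tested, held 89 genes of 106. None passed edgeR's test, 59 were above 0 and 30 below, and 6 were higher and 4 lower at an unadjusted p under 0.05. Over all tested genes 5.95% were higher and 6.86% lower at that level, and 53.1% were above 0. Of the 89 genes, 1 was higher and 1 lower with separate groups, beside 2.22% and 3.17% of all tested genes. DESeq2 called 1 of these pathway genes, Stat5b, and gave no adjusted p to some others, such as Bcl3 and Birc3. Over all genes it called 3.06% of the 7447 to which it gave one. Named from each list are up to 3 genes with the smallest unadjusted p.

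Of the interleukin-6 family ligands and other receptors, 7 of 11 were tested, with 6 above 0, none past an unadjusted p of 0.05 and a median log2 fold change of 0.14, which ranged from 0.088 to 0.33 on leaving out 1 library. Lif, the ligand of Lifr, averaged 0.582 and 1.14 CPM and had a log2 fold change of 0.89 ± 0.52 (SE), or 1.58 without MCF-10A EV replicate 3. Cntfr, the receptor for ciliary neurotrophic factor, had one of -0.31 ± 0.21 (SE), and leaving out MDA-MB-231 EV replicate 2 or 4 gave -0.49 or -0.20.

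Of the JAK and STAT partners and their inhibitors all 13 were tested, 8 were below 0, and 3 of them were lower at an unadjusted p under 0.05, with none higher. Their median log2 fold change was -0.069, which turned to 0.063 on unscaled library sizes, where the median of all genes was 0.15. It was 0.0060 on leaving out MCF-10A EV replicate 3 and 0.032 within the libraries without islet transcripts. Stat5b, the transcription factor downstream of growth hormone in muscle, read 402, 342, 372 and 350 CPM in MCF-10A EV and 292, 263, 295, 221 and 313 CPM in MDA-MB-231 EV. Every MDA-MB-231 EV library lay below every MCF-10A EV library, as for 3.17% of all tested genes. The log2 fold change was -0.40 ± 0.12 (SE), with an adjusted p of 0.261 by edgeR and 0.0288 by DESeq2.

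Jak1, the kinase bound to gp130, read 140, 135, 131 and 106 CPM in MCF-10A EV and 114, 92.5, 111, 95.1 and 111 CPM in MDA-MB-231 EV. Replicate 4 of MCF-10A EV fell within the other group, and the log2 fold change was -0.29 ± 0.11 (SE) with an edgeR adjusted p of 0.329. Socs2, a growth hormone signalling inhibitor and STAT5 target, read 51.0, 14.9, 22.2 and 29.3 CPM and 10.8, 24.5, 15.5, 14.4 and 15.1 CPM. Its log2 fold change of -0.87 became -0.47 without MCF-10A EV replicate 1, the highest library.

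STAT3 response genes had 10 of 15 above 0, 1 higher at an unadjusted p under 0.05 and a median log2 fold change of 0.17. That median was -0.13 within the libraries without islet transcripts, 0.43 within those with them, and 0.021 on leaving out MCF-10A EV replicate 2. The one was Bcl3, an IkB family member that acts with p50 in the nucleus, at 1.49 ± 0.529 CPM (SD, n = 4) against 2.35 ± 0.383 CPM (SD, n = 5), which differ by 0.63 on the log2 scale with an edgeR adjusted p of 0.349. Timp1, a metalloproteinase inhibitor, had a log2 fold change of 0.63 ± 0.34 (SE), and 0.33 without MCF-10A EV replicate 1. Junb, an AP-1 subunit, had one of 0.59 ± 0.36 (SE), and 0.34 or 0.99 without replicate 1 or 3 of MCF-10A EV.

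Of the TNF family ligands, receptors and adaptors, 15 of 18 were tested, with 12 above 0, none past an unadjusted p of 0.05 and a median of 0.13. The second TNF receptor, Tnfrsf1b, read 5.72, 3.65, 4.92 and 4.30 CPM in MCF-10A EV and 5.56, 4.72, 5.53, 6.55 and 6.10 CPM in MDA-MB-231 EV, with overlapping groups and a log2 fold change of 0.29 ± 0.17 (SE). Tnfsf12, the gene for TWEAK, stood at 2.34 ± 0.397 CPM (SD, n = 4) against 3.0 ± 0.812 CPM (SD, n = 5), which differ by 0.35 on the log2 scale (0.19 without MDA-MB-231 EV replicate 2) with an edgeR adjusted p of 0.541, and is named as the ligand of Tnfrsf12a outside the rule. Tnfrsf11b, the decoy receptor osteoprotegerin, and Tnfrsf10b, the receptor for TRAIL, had log2 fold changes of 0.92 ± 0.44 and 0.60 ± 0.32 (SE), both at low levels of at most 4.11 CPM.

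The interleukin-1 family list had 12 of 16 genes tested, 7 above 0, none past an unadjusted p of 0.05 and a median of 0.086. Irak4, the kinase that relays Il1r1 signals, had a log2 fold change of -0.32 ± 0.18 (SE), while Myd88, the adaptor that recruits it, had one of 0.30 ± 0.18 (SE). Il1rl1, the interleukin-33 receptor, had one of 0.64 ± 0.37 (SE) at about 1 CPM.

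NF-kB subunits, inhibitors and kinases had 11 of 14 tested genes above 0, with a median log2 fold change of 0.21, which was 0.018 with both MCF-10A EV replicates 1 and 2 left out. At an unadjusted p under 0.05, 2 were higher and 1 lower. Rela, the p65 subunit, read 29.1, 25.4, 25.5 and 28.3 CPM in MCF-10A EV and 29.3, 30.8, 33.5, 34.3 and 33.9 CPM in MDA-MB-231 EV. Its groups did not overlap, as for 2.22% of all tested genes with MDA-MB-231 EV higher. MCF-10A EV replicate 1 and MDA-MB-231 EV replicate 1 nearly met. For Rela the log2 fold change was 0.26 ± 0.092 (SE) with an edgeR adjusted p of 0.310. Nfkb2, the p52 precursor, read 16.5, 19.9, 17.9 and 18.9 CPM and 25.8, 20.9, 24.4, 24.7 and 19.9 CPM, with replicate 5 of MDA-MB-231 EV level with MCF-10A EV replicate 2. Its log2 fold change was 0.34 ± 0.11 (SE) and its edgeR adjusted p was 0.292. Tab2, an adaptor of the TAK1 kinase, had a log2 fold change of -0.33 ± 0.14 (SE), and -0.18 without MCF-10A EV replicate 2.

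The NF-kB response genes had 15 of 20 tested, 10 above 0 and 3 higher at an unadjusted p under 0.05, with a median of 0.10. The median was 0.035 on leaving out MDA-MB-231 EV replicate 1 and 0.20 on leaving out replicate 4, and it was 0.29 and 0.029 within the libraries without and with islet transcripts. The 3 were Nos2, the inducible nitric oxide synthase, with a log2 fold change of 0.63 ± 0.26 (SE), Ptgs2, the inducible cyclooxygenase, with 0.96 ± 0.41 (SE) at under 1.2 CPM, and Icam1, an adhesion molecule, with 0.37 ± 0.16 (SE). Their edgeR adjusted p was 0.345, 0.358 and 0.364. Tnfaip3, the A20 inhibitor that NF-kB induces, read 6.71, 5.28, 5.40 and 5.14 CPM in MCF-10A EV and 7.13, 5.99, 4.62, 4.56 and 4.47 CPM in MDA-MB-231 EV. The groups overlapped, and the log2 fold change was -0.070 ± 0.18 (SE). Of the chemokines below the count filter, Ccl2 had 7, 4, 5 and 3 reads in MCF-10A EV and 21, 19, 3, 4 and 31 reads in MDA-MB-231 EV, while Cxcl1 had its highest count, 14 reads, in MCF-10A EV replicate 3. These 2 were chosen after their values were seen, and neither was tested in the main fit.

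**Figure D5:**
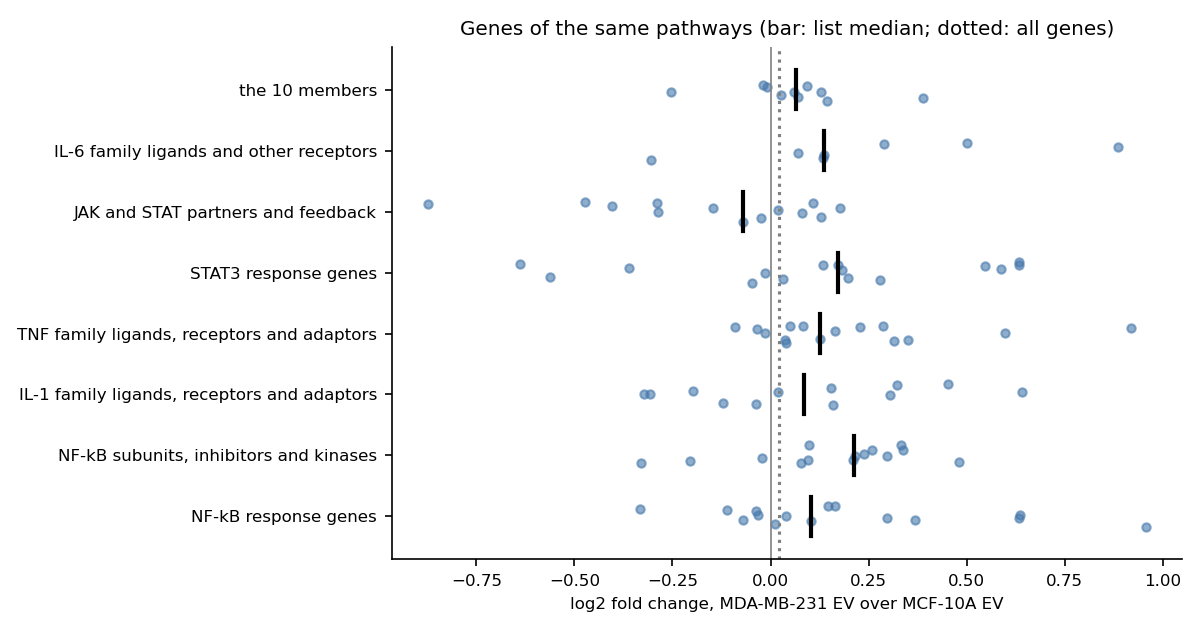
Log2 fold change (MDA-MB-231 EV relative to MCF-10A EV) of the 10 genes (top) and of each tested gene in the 7 pathway lists, with list medians as bars and the median of all tested genes as a dotted line. The JAK and STAT list has the one median below 0 (-0.069), and no gene passed the edgeR test.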

How the data were processed

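Poly-T beads were used to enrich mRNA from Trizol extracts of about 20 mg muscle, per the labels' protocols. The authors deposited whole-number read counts and FPKM values per gene on the mm10 build. The aligners TopHat and STAR 2.5, the counter HTSeq 0.6.1 and both edgeR and DESeq2 appear, with no order or settings, per the submitters' processing notes. The annotation release and the strand setting are not given in the sources used here. Each deposited FPKM value equals the count divided by gene length and library sum within 0.1% for 100% of 161066 values compared, so it carries no scaling between libraries.

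Counts were fitted with edgeR 4.0.16 in R 4.3.3 (TMM, filterByExpr with minimum count 10 and minimum total 15, robust quasi-likelihood F-test, two-sided, group only) over all 13901 tested genes. The Benjamini-Hochberg threshold was 0.05, and the biological coefficient of variation was 20.2%. CPM are on TMM-scaled library sizes. Between 303 and 830 reads support each Tnfrsf1a value. All 10 genes were named whatever their values, with the 3 of smallest unadjusted p per pathway list and Socs3, Tnfaip3, Bcl3 and Cebpd. One gene that this rule names is not reported here. Likeness was fixed for Stat3, Osmr and Nfkbia. The members and lists were chosen with earlier results of these data known. Adgre1 of the macrophage list was not matched by symbol. The code was tested on simulated data.

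Alternatives were RLE, upper-quartile and no scaling, no count filter, CPM of at least 1 in 4 libraries, edgeR without robust dispersion, DESeq2 1.42.0, voom of limma 3.58.1, limma on log2(FPKM + 1), filtered or not, or log2(FPKM + 0.1), a block for replicate number, leaving out libraries, splitting by islet transcripts and exact permutation. Likeness for Tnfrsf1a and Tnfrsf12a was added after seeing the data. Figures used matplotlib 3.10.9 in Python 3.11.15.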

Additional observations from a re-analysis of the deposited data

Results flagged for a closer look

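In 68 groups of 34 named genes, 8 held a library far from the rest of its group by Dixon's test at 95%. Chance gives about 1 in 20 groups only where values are independent and normally spread. Some of the flagged genes varied together, such as Tnfrsf12a with Socs3 (r = 0.969) and Nfkbia with Cebpd (r = 0.967). The 8 are therefore listed as a description and not read as an excess. Tnfrsf12a in MDA-MB-231 EV replicate 1 read 85.1 CPM, with the other 4 at 10.4 to 21.1 CPM, and Socs3 in the same library read 26.2 CPM, with the others at 5.78 to 11.3 CPM. In MDA-MB-231 EV replicate 4, Nfkbia read 29.2 CPM against 21.3 to 23.3 CPM, Cebpd 30.1 CPM against 10.6 to 14.0 CPM, and Tab2 105 CPM against 133 to 143 CPM. In MCF-10A EV, Lif read 1.21 CPM in replicate 3 against 0.311 to 0.440 CPM. Timp1 read 0.495 CPM in replicate 1 against 2.01 to 2.15 CPM, and Tnfaip3 read 6.71 CPM in replicate 1 against 5.14 to 5.40 CPM.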

How the results depend on the processing

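Across 23 of 24 alternatives none of the 10 genes passed, and with DESeq2 1 did, Tnfrsf1a (0.38, adjusted p 0.0131). DESeq2 called 228 genes in all and 1 of the pathway genes, log2(FPKM + 1) without a filter called 1 gene in all, and leaving out 1 library gave 0 to 2, the highest without MCF-10A EV replicate 4. Il6st, Stat3, Tnfrsf1a and Nfkb1 kept their sign in all 25 settings tried for each. Nfkbia turned positive with upper-quartile factors (0.0031), unscaled sizes (0.10), voom (0.029), log2(FPKM + 1) with and without filter (0.17), log2(FPKM + 0.1) (0.19), the replicate block (0.064), the libraries with islet transcripts (0.13) and the permuted difference of mean log2 CPM (0.055). Tnfrsf12a did so with upper-quartile factors (0.00097), unscaled sizes (0.11) and the libraries with islet transcripts (0.29), and it was -1.20 in those without. With both MCF-10A EV replicates 1 and 2 left out, Nfkbia was -0.40 (unadjusted edgeR p 0.0104), so that 2 of the 10 genes lay under 0.05. In that fit 1304 of all 14382 genes did. The count was also 2 with unscaled sizes (2261 of 13901 genes) and DESeq2 (2088 of 21860). It was 2 with log2(FPKM + 1) (2424 of 13901, or 2787 of 21860 unfiltered) and log2(FPKM + 0.1) (2399 of 13901). Without MCF-10A EV replicate 4 (2089 of 14093) or MDA-MB-231 EV replicate 1 (1668 of 13778) it was 2 again, and within the libraries without islet transcripts 0 (1133 of 13953). Osmr turned negative without islet libraries (-0.023), and Lifr (-0.14) and Il1r1 (-0.0036) within them. The cause was not tested. Leaving out 1 library gave ranges of -0.031 to 0.18 for Il6ra, -0.069 to 0.18 for Lifr, 0.070 to 0.25 for Osmr, 0.038 to 0.23 for Stat3, -0.99 to 0.36 for Tnfrsf12a, -0.0067 to 0.18 for Il1r1 and -0.17 to 0.21 for Nfkbia. Replicate numbers did not pair the samples (correlations of deviations -0.30, -0.18, 0.038 and 0.080), and with the replicate block 0 genes passed and Tnfrsf1a had 0.44 (adjusted p 0.664). Genes at unadjusted p under 0.05 numbered 1781 of 13901 tested, and 1007 of 13745 with the block. They numbered 738 of 14051 and 1133 of 13953 within the libraries with and without islet transcripts. For log2(FPKM + 1) they numbered 2424 of 13901, and 2787 of 21860 without filter. Leaving out 1 library, list medians ranged from 0.088 (MDA-MB-231 EV replicate 4) to 0.33 (MCF-10A EV replicate 1) for interleukin-6 family genes, -0.15 (MCF-10A EV replicate 4) to 0.0060 (MCF-10A EV replicate 3) for JAK and STAT partners, 0.021 (MCF-10A EV replicate 2) to 0.25 (MCF-10A EV replicate 4) for STAT3 response genes, 0.063 (MDA-MB-231 EV replicate 1) to 0.16 (MDA-MB-231 EV replicate 5) for the TNF family, 0.0079 (MDA-MB-231 EV replicate 5) to 0.16 (MDA-MB-231 EV replicate 3) for the interleukin-1 family, 0.12 (MCF-10A EV replicate 2) to 0.24 (MDA-MB-231 EV replicate 2) for NF-kB subunits and 0.035 (MDA-MB-231 EV replicate 1) to 0.20 (MDA-MB-231 EV replicate 4) for NF-kB response genes. The NF-kB subunit median was 0.018 with both MCF-10A EV replicates 1 and 2 left out. Of 24 pathway genes chosen by the naming rule, 11 moved by over 1.5 times or changed sign on leaving out some library. With 4 and 5 libraries per group, Il6ra, Osmr and Il1r1, at 84 to 252 reads, had no adjusted p from DESeq2.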
